A study of Mus musculus with 13 samples.

Results

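Dendritic cells sorted as CD103 high and as CD103 low from the spleens of MDP-treated mice were compared across 22180 genes. The comparison used the 3 arrays titled MDP High and the 3 titled MDP Low, chosen by their titles, which are 6 of the 13 arrays of the study. All cells were CD205+CD8+ dendritic cells of C57Bl/6 littermates labelled male. At 6 weeks of age each mouse was given, under the skin, B16 melanoma cells made to release Flt3L, which raises dendritic cell numbers. After 5 days the mice received 100 ul of PBS intraperitoneally, either alone or with 50 ug of muramyl dipeptide (MDP), and 24 h later the spleens were digested with collagenase D and sorted, in the end by surface CD103. The PBS mice gave 3 CD103 high and 4 CD103 low arrays, which share the tumour, its Flt3L and the injection with the MDP arrays. From each sample 400 ng of RNA was pre-amplified, and samples whose RNA was of sufficient quality were used. The labels do not say whether each array came from its own mouse or whether mice were pooled, so p-values measure the spread between these samples, which may be technical.

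CD8+ dendritic cells of the spleen belong to the type 1 conventional dendritic cells (cDC1), which engulf dying cells and show peptides from them to CD8 T cells. CD103 is the alpha E integrin, encoded by Itgae, and CD205 is an endocytic receptor encoded by Ly75. MDP is a fragment of bacterial peptidoglycan that the cytosolic receptor NOD2 senses, and NOD2 signals to NF-kB through the kinase RIPK2. Dendritic cells that mature gain CCR7, the receptor that guides them towards the T cell zones, and transcribe chemokines and costimulatory molecules. Dividing cells transcribe in turn the genes that copy DNA, under E2F factors, and the genes that build the spindle and part the chromosomes, under the MuvB complex with MYBL2 and FOXM1.

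Values are log2 microarray values after RMA, differences are CD103 high minus CD103 low, and a gene is called where its adjusted p lies under 0.05 in limma with Benjamini-Hochberg adjustment over all 22180 genes. The spread was estimated from all 13 arrays in 4 groups, and the 6 MDP arrays are named high 2, high 3, high 4, low 1, low 2 and low 3 after the numbers in their titles. Low 1 stood apart from low 2 and low 3, with a mean over 35 genes of mature dendritic cells of 8.82 against 7.89 and 7.91, so results are given with and without it. Xist, which coats the silenced X of females, ranged from 10.98 to 11.21 on 7 arrays and from 4.47 to 6.69 on the other 6. Uty, Kdm5d and Eif2s3y lie on the Y chromosome, and their mean ran opposite to Xist. It lay between 3.50 and 4.39 on those 7 arrays and between 7.85 and 8.21 on the other 6. The arrays thus fell into 2 sets by both measures, although all mice are labelled male. High 3, high 4 and low 3 were in the former set, and high 2, low 1 and low 2 in the latter. The values of the former set do not match the label male, and how this came about was not tested. As a gauge of background, the 95th percentile of the mean levels of 1105 olfactory receptor genes, which dendritic cells are not known to use, was 5.12, and levels below it are said to lie in the olfactory receptor range.

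Itgae (probe set 17252574, Entrez gene 16407) followed the gate, though its call depends on the fit. Its log2 value was 11.44, 11.10 and 11.51 in high 2, high 3 and high 4, and 10.68, 10.07 and 9.64 in low 1, low 2 and low 3. The arrays of the gates did not overlap, and low 1 was the low array nearest to the high ones. The difference was 1.22 ± 0.25 (SE), or 2.33-fold, with an adjusted p of 0.0529. Without low 1 the difference was 1.49, with an adjusted p of 0.0406, and with arrays of one treatment and number kept as a random block the adjusted p was 0.0242. In PBS mice the high gate had 10.15 ± 0.08 (SD, n = 3) and the low gate 7.92 ± 0.41 (SD, n = 4). The low gate after MDP, at 10.13 ± 0.52 (SD, n = 3), thus had Itgae levels close to those of the high gate after PBS. The difference between gates was 1.01 smaller after MDP than after PBS on the log2 scale, which was not called (interaction -1.01, adjusted p = 0.332).

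The genes of the other sorted proteins were not called between the gates. Cd8a was at 10.30, 10.24 and 10.31 in the high arrays and at 10.52, 10.23 and 10.37 in the low arrays, a difference of -0.09 ± 0.11 (adjusted p = 0.842). Ly75 was at 9.20, 9.14 and 8.99 against 9.93, 9.23 and 9.24, so its gates did not overlap, with low 1 again the outermost array. Its difference was -0.36 ± 0.16 (adjusted p = 0.451), and -0.13 without low 1 (adjusted p = 0.874). Of 19 measured cDC1 markers none was called in either direction with all arrays. Without low 1, and also with the random block, 1 was called, Itgae. The mean of the 19 lay between 10.80 and 10.87 in the high arrays and between 10.77 and 10.83 in the low arrays. The list holds Itgae, which follows the gate, and Cd8a and Ly75, whose proteins all cells were sorted on. Its mean is thus partly fixed by the sort. Batf3 and Irf8, transcription factor genes that define cDC1, had means of 11.21 and 12.24 in the high gate and 11.17 and 12.22 in the low gate. Both gates thus carried the labelled cell type's transcripts.

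**Figure D1:**
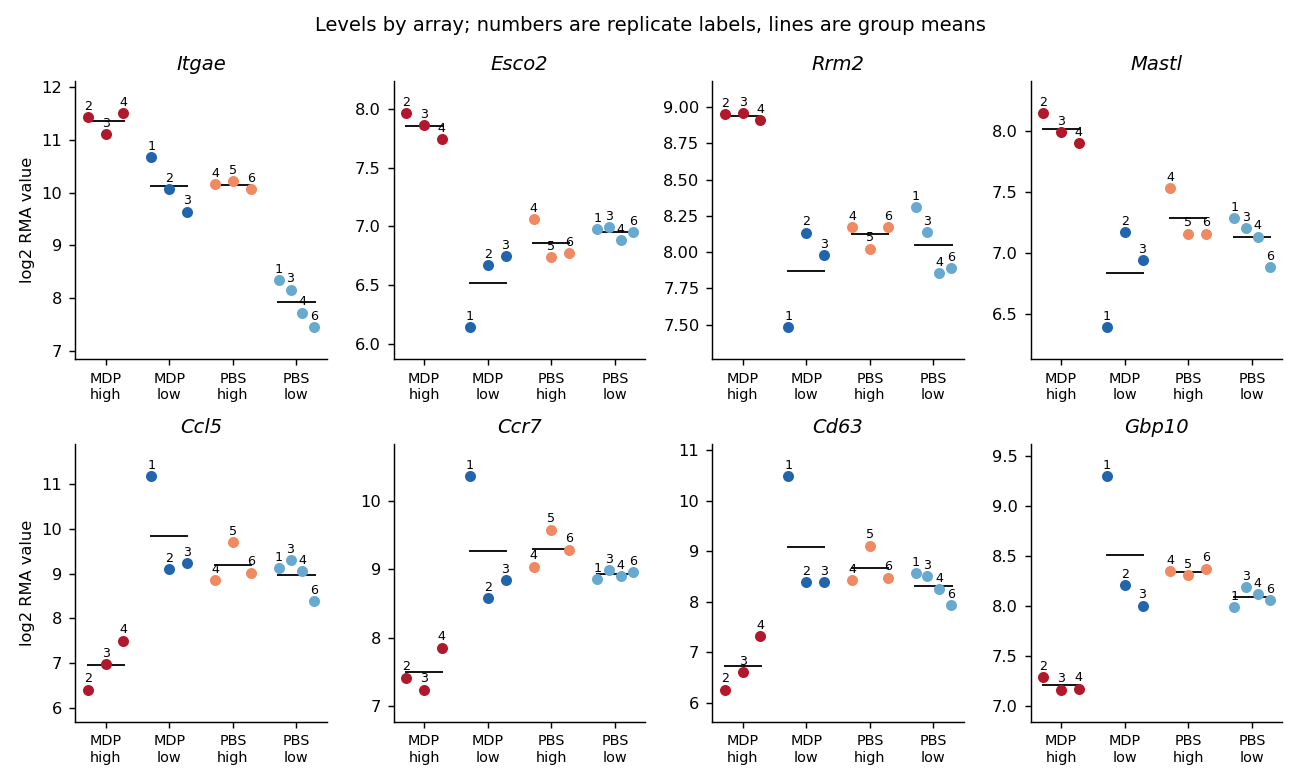
Log2 RMA values (y axes) of 8 genes in each array of the 4 groups (x axes); points carry the replicate number and lines are group means. Itgae is highest in the MDP CD103 high arrays; Esco2, Rrm2 and Mastl stand higher, and Ccl5, Ccr7, Cd63 and Gbp10 lower, in those 3 arrays than in the arrays of any other group, and MDP CD103 low replicate 1 is the outermost array for most of them.

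Between the gates after MDP, 116 of 22180 genes were called (0.523%), of which 105 (0.473%) had the higher level in CD103 high cells and 11 (0.0496%) the lower one. The genes that were higher were mostly those of DNA replication and chromosome segregation, and those that were lower included the chemokine gene Ccl5 and the receptor gene Ccr7. Of the 105 higher genes, 65 (61.9%) belong to 14 lists of cell division genes, which hold 269 of the 22180 genes. Their differences were moderate, between 0.35 and 1.33 with a median of 0.76, and 8 reached 2-fold. The 11 lower genes ranged from -0.40 to -2.88, and 5 reached 2-fold. Over all genes the median difference was -0.01, 45.7% of the differences lay above 0 and 54.3% below, and 10.2% had an unadjusted p under 0.05. For each of the 116 genes the 3 high arrays did not overlap with the 3 low arrays, as was so for 14.4% of all genes, 6.43% higher and 7.93% lower. In sorted bulk samples fewer cells of a type and less RNA per cell cannot be told apart.

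**Figure D2:**
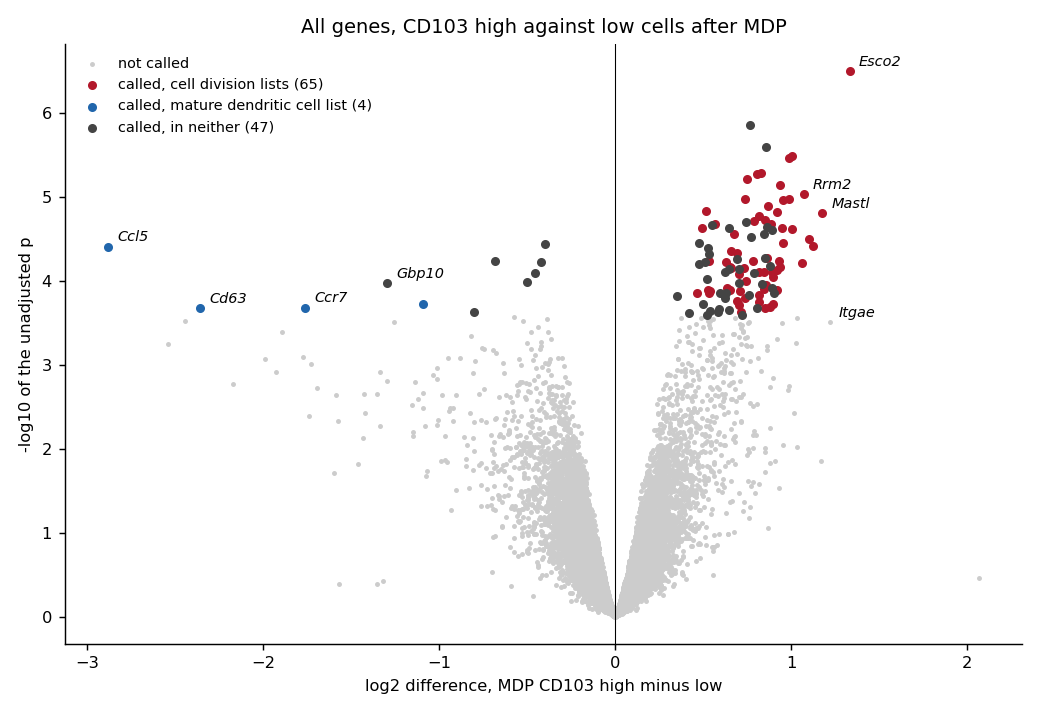
Log2 difference, MDP CD103 high minus low (x axis), against −log10 of the unadjusted p (y axis) for all 22180 genes; coloured points are the 116 called genes by list. The 105 called genes on the right are mostly members of the cell division lists, and the called genes with the largest sizes on the left are Ccl5, Cd63 and Ccr7.

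The calls rest on few arrays. Without low 1, 16 genes were called (0.0721%), 12 higher (0.0541%) and 4 lower (0.018%), and 14 of them are among the 116. These 14 are Esco2, Rrm2, Mastl, E2f7, Kntc1, Cdca5, Eme1, Rad18, Mtbp, Ddx43 and the predicted gene Gm10088, which were higher, and Ccl5, Ccr7 and Gbp10, which were lower. The other 2 genes called without low 1 were Itgae and Anxa3. Without high 2 and without high 3 no gene was called, so each count of genes called after MDP in the fit of all arrays, in the lists too, falls to 0 without either of these arrays. The smallest adjusted p was then 0.0594 and 0.0548, with 1895 and 1966 genes at an unadjusted p under 0.05. Without high 4, 64 genes were called, and without low 3, 66. With only the 6 MDP arrays in the fit 0 genes were called (smallest adjusted p 0.105, 1927 genes at an unadjusted p under 0.05).

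Since the gates do not overlap in any of the 116 genes, leaving out an MDP array changes the size of their differences and not the sign. Without low 1 the difference of the 105 higher genes was, in the median, 87.2% of that with all arrays, and for the 11 lower genes it was 76.6%. Low 1 had the lowest value of the low arrays for 89 of the 105 higher genes and the highest for 10 of the 11 lower genes. Arrays of the same number within a treatment deviated together modestly, with correlations from 0.196 to 0.372, and were assumed to be pairs. The high and low arrays numbered 2 and those numbered 3 were thus also set against each other. The median difference of the 105 genes was 0.68 in the number 2 arrays, which are both low in Xist. In the number 3 arrays, which are both high in Xist, it was 0.72. Over all genes these medians were -0.02 and -0.01. The 105 genes were called as higher in these same arrays without overlap, so differences above 0 in each pair were fixed beforehand. They are no separate support. With the number as a fixed block across treatments 0 genes were called (smallest adjusted p 0.0641, 2141 genes at an unadjusted p under 0.05). With treatment and number as a random block, an alternative added after the data were seen, 190 genes were called (0.857%), 160 higher (0.721%) and 30 lower (0.135%), and they include all 116. With the Xist state as a block, 61 genes were called, 58 of them among the 116, and 3 of the 116 lie on the X chromosome and 0 on the Y.

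**Figure D3:**
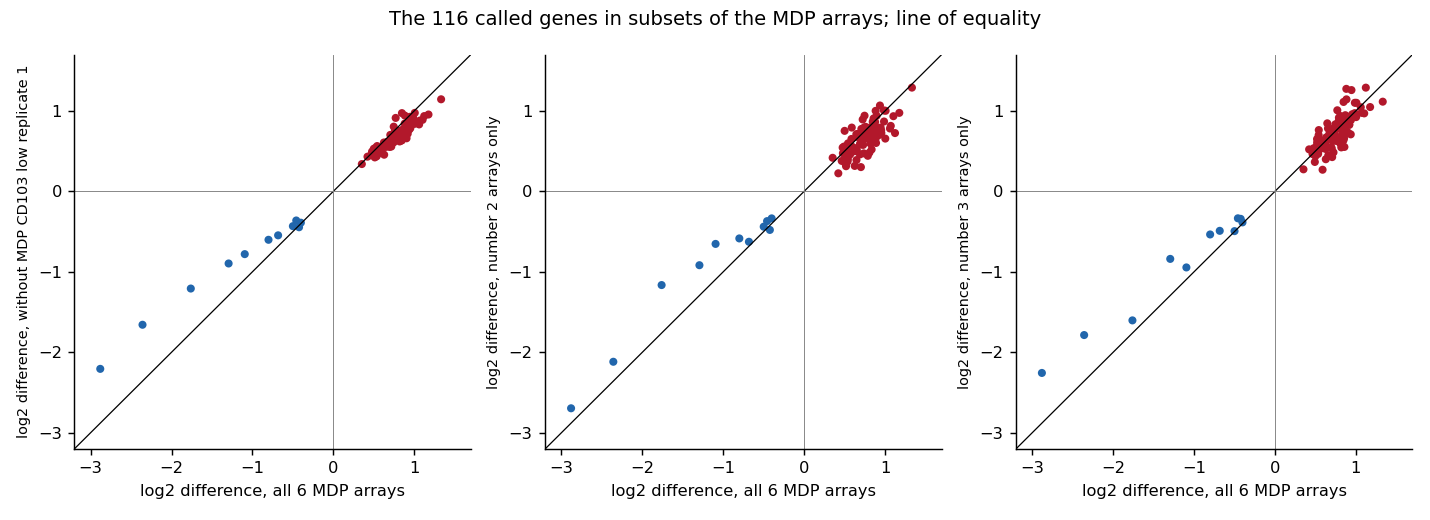
Log2 differences of the 116 called genes with all 6 MDP arrays (x axes) against those without MDP CD103 low replicate 1, in the number 2 arrays and in the number 3 arrays (y axes), with the line of equality. The 105 higher genes (red), with a median of 0.76 in all arrays, have medians of 0.65, 0.68 and 0.72 in the panels. The difference of Ccl5, the lowest blue point, goes from -2.88 to -2.21 without MDP CD103 low replicate 1. The genes were called in these same arrays, so their signs in the panels were fixed beforehand.

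Esco2 (probe set 17307774, Entrez gene 71988), an acetyltransferase that locks cohesin rings onto newly copied chromatids, had the smallest p of all genes. Its log2 value was 7.96, 7.86 and 7.74 in the high arrays and 6.15, 6.67 and 6.75 in the low arrays. The lowest high array thus lay well above the highest low array, and low 1 was the lowest. The difference was 1.33 ± 0.14, or 2.52-fold (adjusted p = 0.00698), and 1.14 without low 1 (adjusted p = 0.00316). Other genes of the rings that hold and fold chromosomes were higher too, with 7 of 21 measured cohesin and condensin genes called, all higher, beside a median of 0.21 for the whole list. They are Cdca5, which encodes sororin, the guard of acetylated cohesin (0.83 ± 0.11, adjusted p = 0.0167), and Sgo1, the shugoshin that shields cohesin at centromeres (0.70 ± 0.14, adjusted p = 0.0416). Espl1, the separase that opens the rings at anaphase, was higher by 0.67 ± 0.11 (adjusted p = 0.0193). The condensin subunit genes Ncaph (0.95 ± 0.15), Ncapg2 (0.85 ± 0.13) and Ncapd3 (0.54 ± 0.10) were called as well, with adjusted p from 0.018 to 0.034. Of the 7, Esco2 and Cdca5 were called without low 1.

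The E2F and MuvB list holds regulators of cell division genes. Of its 20 genes 5 were called, all higher, with a list median of 0.26. Whether they act on the other called genes here was not tested. E2f7 (probe set 17237186, Entrez gene 52679), an atypical E2F that represses E2F targets late in S phase, was at 7.56, 7.61 and 7.73 in the high arrays and at 6.30, 6.91 and 6.69 in the low arrays. That is a difference of 1.00 ± 0.13 (adjusted p = 0.0152; 0.84 without low 1, adjusted p = 0.0205). Its close relative E2f8 was at 9.50, 9.54 and 9.45 against 8.23, 8.88 and 8.84 (0.84 ± 0.15, adjusted p = 0.0258; without low 1 0.63, adjusted p = 0.057). In both genes the high arrays lay within 0.2 of each other, and low 1 lay apart from low 2 and low 3. Mybl2 (0.74 ± 0.11, adjusted p = 0.018) and Foxm1 (0.75 ± 0.13, adjusted p = 0.0303), which drive the genes of mitosis, and the activator E2f2 (0.54 ± 0.10, adjusted p = 0.034) were also higher. None of these 3 was called without low 1, where their adjusted p was 0.0574, 0.0943 and 0.117.

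Of the 105 higher genes, 2 belong to the list of deoxynucleotide synthesis, 5 to that of licensing and 10 to that of the replication fork. Rrm2 (probe set 17274540, Entrez gene 20135), the regulated subunit of ribonucleotide reductase, which makes the building blocks of DNA, was at 8.95, 8.96 and 8.91 in the high arrays and at 7.49, 8.13 and 7.98 in the low arrays. The difference was 1.07 ± 0.15, or 2.10-fold (adjusted p = 0.018), and 0.88 without low 1 (adjusted p = 0.0368). In the list of deoxynucleotide synthesis, 2 of 13 genes were called, the other being Tk1, the thymidine kinase of S phase (0.49 ± 0.08, adjusted p = 0.018), beside a list median of 0.29. Of 23 genes that license origins, 5 were called and all 23 differences lay above 0, with a median of 0.40. Named by role, these are Cdc6, a loader of the helicase (0.93 ± 0.16), Mcm10 and Cdc45, which start it (0.82 ± 0.15 and 0.74 ± 0.14), the kinase gene Cdc7 (0.66 ± 0.12) and the licensing inhibitor gene Gmnn (0.73 ± 0.13), with adjusted p from 0.0247 to 0.0366. None of the 5 was called without low 1.

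At the replication fork 10 of 27 genes were called, and all 27 differences lay above 0, with a median of 0.54. Pole, the catalytic subunit of the leading-strand polymerase, was at 8.93, 8.95 and 8.89 against 7.73, 8.15 and 8.12, a difference of 0.92 ± 0.14 (adjusted p = 0.018). Without low 1 it was 0.78 (adjusted p = 0.0574). Lrr1, which helps to unload the helicase, was higher by 1.01 ± 0.16 (adjusted p = 0.018). The others were Atad2 (0.90), Clspn (0.71), the ligase gene Lig1 (0.69), Wdhd1 (0.65), the primase gene Prim2 (0.63), the clamp loader genes Rfc3 (0.57) and Rfc5 (0.52) and Rpa2 (0.53), which coats single strands. No gene of this list was called without low 1.

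In the list of recombination and Fanconi repair 8 of 25 genes were called and all 25 differences lay above 0, with a median of 0.69. Polq, an end-joining polymerase, was at 7.06, 7.03 and 6.80 in the high arrays and at 5.45, 6.28 and 5.99 in the low arrays (1.06 ± 0.18, adjusted p = 0.0247; 0.83 without low 1, adjusted p = 0.062). Blm, a helicase that undoes crossed strands, was at 8.07, 8.07 and 7.98 against 6.80, 7.35 and 7.12 (0.95 ± 0.14, adjusted p = 0.018; 0.81 without low 1, adjusted p = 0.053). For both, low 1 was the lowest array. For Brca1 and Eme1 it was the highest of the low arrays instead. Brca1 was higher by 0.88 ± 0.14 (adjusted p = 0.018), and by 0.94 without low 1 (adjusted p = 0.0544). Eme1, a subunit of a junction-cutting nuclease, was at 5.86, 5.77 and 5.67 against 5.14, 4.92 and 5.00 (0.75 ± 0.10, adjusted p = 0.0168), and was the only gene of the list called without low 1 (0.80, adjusted p = 0.0348). Rad54l (0.82), Fancd2 (0.79), Ube2t (0.66) and Uhrf1 (0.63) complete the 8.

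To show what stands in front of such genes, the promoter windows of Rrm2, E2f7, Kntc1 and Polq are given from the RefSeq table of build GRCm38.p6, each 250 bases before to 50 bases after the start. All 4 genes are named by the size of their differences. The windows of E2f7, Kntc1 and Polq were chosen after their matches were seen, as examples of each motif. Capitals mark matches, on either strand, to E2F-type sites (TTTCCCGC, TTTGGCGC, TTTGCCGC or TTTCGCGC), to the CHR element bound by MuvB (TTTGAA or TTCGAA) and to CCAAT boxes (CCAAT). The windows lie on the plus strand at chr12:24708004-24708303 (Rrm2), chr10:110745189-110745488 (E2f7), chr5:123749476-123749775 (Kntc1) and chr16:37011536-37011835 (Polq).
Rrm2: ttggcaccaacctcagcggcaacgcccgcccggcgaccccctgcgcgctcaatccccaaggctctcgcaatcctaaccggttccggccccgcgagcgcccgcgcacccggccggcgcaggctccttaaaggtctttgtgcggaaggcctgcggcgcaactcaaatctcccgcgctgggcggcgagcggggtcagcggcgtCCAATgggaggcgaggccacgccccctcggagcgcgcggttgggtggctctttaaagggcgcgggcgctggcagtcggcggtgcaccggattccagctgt
E2f7: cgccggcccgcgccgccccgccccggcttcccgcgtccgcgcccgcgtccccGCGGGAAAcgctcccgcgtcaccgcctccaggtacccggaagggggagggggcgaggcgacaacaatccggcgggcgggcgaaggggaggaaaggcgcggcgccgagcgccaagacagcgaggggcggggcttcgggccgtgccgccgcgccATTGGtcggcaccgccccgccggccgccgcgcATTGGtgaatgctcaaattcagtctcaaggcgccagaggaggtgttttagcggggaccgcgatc
Kntc1: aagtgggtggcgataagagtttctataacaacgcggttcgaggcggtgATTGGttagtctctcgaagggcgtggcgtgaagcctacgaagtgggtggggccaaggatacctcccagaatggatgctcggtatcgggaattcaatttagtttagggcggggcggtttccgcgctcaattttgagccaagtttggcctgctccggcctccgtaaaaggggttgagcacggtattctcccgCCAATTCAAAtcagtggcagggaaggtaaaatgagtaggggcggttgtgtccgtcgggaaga
Polq: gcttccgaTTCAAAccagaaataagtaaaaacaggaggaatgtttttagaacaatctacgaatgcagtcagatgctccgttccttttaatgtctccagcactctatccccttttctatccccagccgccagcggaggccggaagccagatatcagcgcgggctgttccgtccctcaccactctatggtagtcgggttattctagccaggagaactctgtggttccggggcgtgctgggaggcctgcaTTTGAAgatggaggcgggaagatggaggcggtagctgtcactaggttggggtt
The E2f7 window holds an E2F-type site at position -198 relative to the start. The Kntc1 window holds a CHR element at -8 that shares a base with a CCAAT box, and Polq holds 2, at -242 and -3. In Rrm2 only a CCAAT box was found, at -50.

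Such a window was held for 86 of the 105 higher genes and for 16918 of the 22180 genes. An E2F-type site was found in 12 of the 86 (14%) against 3.25% of all windows' genes, a CHR element in 32 (37.2%) against 19.4%, and a CCAAT box in 51 (59.3%) against 41.6%. Over the 227 measured cell division genes with a window, called or not, the shares were 21.1%, 38.3% and 59%, so those of the 86 called genes lay below or near them. An NF-kB site, searched by its consensus on both strands, was found in 5 of the 86 (5.81%) against 5.54%. Matches of different motifs may overlap, a gene with several windows counts where any of them has a match, and a match describes letters and not a bound factor. Of the 11 lower genes, 6 had a window, with an NF-kB site in 1. Esco2, Ccl5, Ccr7 and Itgae were not among the promoters held.

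Part of the genes that move chromosomes was called, and all of those called were higher. Of 25 genes of the centromere and kinetochore, 13 were called, all 25 differences lay above 0 and the median was 0.72. Kntc1, a subunit of the complex that brings dynein and checkpoint proteins to kinetochores, was at 7.64, 7.78 and 7.49 in the high arrays and at 6.49, 6.77 and 6.68 in the low arrays. Its difference was 0.99 ± 0.13 (adjusted p = 0.0152; 0.91 without low 1, adjusted p = 0.0406), and it was the only gene of the list called without low 1. Its partner Zwilch was higher by 0.86 ± 0.16. Cenpi, of the inner kinetochore, was at 8.13, 8.27 and 7.99 against 6.63, 7.40 and 6.98 (1.12 ± 0.18, adjusted p = 0.0221). The Ndc80 complex, which grips microtubules, was represented by Ndc80 (0.95), Nuf2 (0.90) and Spc25 (0.87), and the Ska complex, which steadies that grip, by Ska3 (0.94) and Ska1 (0.85). Cenpk (0.94), Cenpn (0.82), Cenph (0.79), Cenpl (0.53) and Cenpt (0.46) were the other members called.

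Of 24 genes of the spindle checkpoint and the mitotic kinases 4 were called, with a list median of 0.63. Mastl (probe set 17382169, Entrez gene 67121), the Greatwall kinase that holds off the phosphatase opposing mitosis, was at 8.14, 7.99 and 7.90 in the high arrays and at 6.39, 7.17 and 6.94 in the low arrays. The difference was 1.18 ± 0.18 (adjusted p = 0.018; 0.96 without low 1, adjusted p = 0.0406). Aurkb, the kinase of the chromosomal passenger complex, was higher by 0.88 ± 0.17 (adjusted p = 0.0437; without low 1 0.139). Fbxo5, which encodes an inhibitor of the anaphase-promoting complex, and the kinase gene Pbk were higher by 0.86 ± 0.15 and 0.89 ± 0.16. Mastl was the only one of the 4 called without low 1.

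Of 22 mitotic kinesins and genes of cytokinesis 7 were called and all 22 differences lay above 0, with a median of 0.73. Kif4, a motor of the spindle midzone, was at 7.13, 7.35 and 7.01 against 6.03, 6.13 and 6.38 (0.99 ± 0.14, adjusted p = 0.018). Kif18b, which shortens astral microtubules, was at 8.64, 8.80 and 8.42 against 7.69, 7.87 and 7.87 (0.81 ± 0.11, adjusted p = 0.0167). Both had narrow low groups, yet without low 1 their adjusted p was 0.0574 and 0.053, and no gene of the list was called. Kif20b and Prc1 (0.92 each), Nusap1 (0.82), Cit (0.70) and Ect2 (0.66), which bundle the midzone or place the cleavage furrow, were the others. Of 20 genes of centriole duplication, Stil, a core factor of that step (8.55, 8.43 and 8.30 against 6.90, 7.61 and 7.46, 1.10 ± 0.18, adjusted p = 0.0204), and the augmin gene Haus6 (0.69 ± 0.12, adjusted p = 0.0245) were called, with a list median of 0.27.

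**Figure D4:**
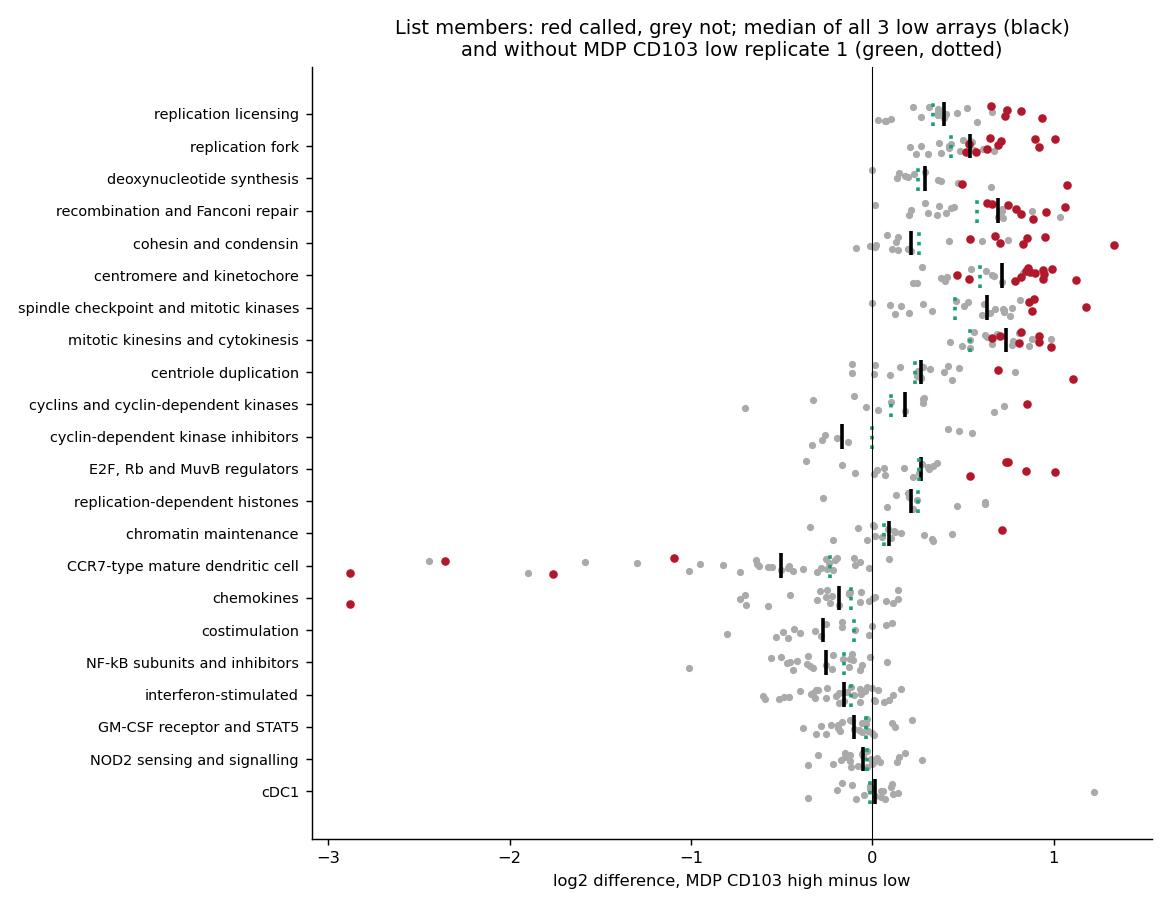
Log2 differences, MDP CD103 high minus low (x axis), of the members of 22 lists (y axis); red points are called members, grey points are not, black bars are list medians and dotted green bars are medians without MDP CD103 low replicate 1. Kinetochore, kinesin, repair and replication fork lists lie to the right, with medians of 0.72, 0.73, 0.69 and 0.54, and the mature dendritic cell list lies to the left, with a median of -0.51 that becomes -0.23 without that array.

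The remaining cell division lists held few calls. Of 13 cyclins and cyclin-dependent kinases 1 was called, Cdk1, the kinase of mitotic entry, at 9.92, 9.94 and 9.69 against 8.68, 9.26 and 9.06 (0.85 ± 0.17, adjusted p = 0.0437; 0.156 without low 1). Of 18 genes of chromatin maintenance 1 was called, the histone chaperone gene Asf1b (0.72 ± 0.14, adjusted p = 0.0461; 0.139 without low 1). Their list medians were 0.18 and 0.09 (0.10 and 0.06 without low 1). No cyclin-dependent kinase inhibitor of 8 was called, and the smallest p belonged to Cdkn2c (0.55 ± 0.13, adjusted p = 0.102) and Cdkn2d (0.48 ± 0.12, adjusted p = 0.12). Of the 8 inhibitors 3 lay above 0 and 5 below, with a median of -0.17 (-0.001 without low 1). No replication-dependent histone gene of the 10 with a probe set of their own was called, with H1f5 (0.62 ± 0.15, adjusted p = 0.107) and H4c9 (0.19 ± 0.07, adjusted p = 0.375) first by p. Histone genes are near copies of each other, so their probe sets may share signal, and 5 of the 10 lay in the olfactory receptor range.

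The other 40 higher genes lie outside these lists, and several that are known to act in cell division are named here after their values were seen. Rad18, a ubiquitin ligase that marks stalled forks, was at 8.22, 8.22 and 8.17 against 7.31, 7.56 and 7.43 (0.77 ± 0.09, adjusted p = 0.0152; 0.71 without low 1, adjusted p = 0.0348). Mtbp, needed to fire origins, was at 7.92, 7.85 and 8.06 against 6.90, 7.22 and 7.13 (0.86 ± 0.11, adjusted p = 0.0152; 0.77 without low 1, adjusted p = 0.0368). Its partner Ticrr (0.85 ± 0.14), Top2a, which untangles DNA (0.89 ± 0.16), and Mms22l, a fork repair factor (0.70 ± 0.12), were also higher. The nuclear pore genes Ndc1 (0.69 ± 0.12), Nup155 (0.55 ± 0.08) and Nup133 (0.54 ± 0.09) were called together with the tubulin gene Tubb5, at 0.35 ± 0.07 the smallest higher call. Mir16-2 (0.72 ± 0.15) lies inside the condensin gene Smc4, so its probes cannot be told apart from that transcript, and Smc4 itself was at 0.42. Of the 105 genes, 4 had mean levels inside the olfactory receptor range.

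The chemokine gene Ccl5 (probe set 17266946, Entrez gene 20304) had the largest difference of all called genes. Its log2 value was 6.41, 6.98 and 7.50 in the high arrays and 11.19, 9.10 and 9.24 in the low arrays. The gates were far apart in each pair of arrays, and low 1 stood about 2 log2 units above the other low arrays. The difference was -2.88 ± 0.47, which is 7.37-fold lower in the high gate (adjusted p = 0.0221), and -2.21 without low 1 (adjusted p = 0.0406). CCL5 draws T cells and other leukocytes. Of 25 chemokine genes it was the only one called, beside a list median of -0.19 (-0.12 without low 1).

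Ccr7 (probe set 17268972, Entrez gene 12775) was at 7.41, 7.24 and 7.85 in the high arrays and at 10.37, 8.58 and 8.84 in the low arrays. The difference was -1.76 ± 0.34, or 3.39-fold lower (adjusted p = 0.0437), and -1.21 without low 1 (adjusted p = 0.0406). It was the only called gene of 23 receptors for chemokines and S1P, whose median was -0.09. Cd63 (probe set 17238594, Entrez gene 12512), a tetraspanin of late endosomes, was at 6.26, 6.61 and 7.32 against 10.49, 8.38 and 8.40 (-2.36 ± 0.46, adjusted p = 0.0439). Without low 1 it was at -1.66 (adjusted p = 0.0598). Zmynd15 was at 6.77, 6.41 and 6.65 against 8.33, 7.43 and 7.36 (-1.09 ± 0.21, adjusted p = 0.0416; -0.78 without low 1, adjusted p = 0.061). All 4 genes belong to the list of CCR7-type mature dendritic cells, of which 4 of 35 measured members were called and 34 of 35 lay below 0, with a median of -0.51. Without low 1, 31 of 35 lay below 0 and the median was -0.23, with Ccl5, Ccr7 and Anxa3 called.

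Anxa3 and Fscn1 of the mature list were not called with all arrays and are named after their values were seen. Anxa3, an annexin, was at 4.23, 4.35 and 4.95 in the high arrays and at 8.56, 6.19 and 6.11 in the low arrays (-2.44 ± 0.50, adjusted p = 0.0529). It was called without low 1 (-1.64, adjusted p = 0.0406) and with the random block (adjusted p = 0.0319). Its values in all high arrays lay in the olfactory receptor range. Fscn1, the actin bundler of mature dendritic cells, was at 5.45, 5.93 and 5.97 against 8.91, 6.94 and 7.20 (-1.90 ± 0.40, adjusted p = 0.0615), and was called with the random block (adjusted p = 0.0399) and not without low 1 (adjusted p = 0.0649). The arrays of the gates do not overlap for either gene, and for both the low 1 value lies over 1.5 log2 units above those of low 2 and low 3. The mean over the 35 genes was 7.39, 7.41 and 7.58 in the high arrays and 8.82, 7.89 and 7.91 in the low arrays. It ranged from 7.99 to 8.34 in the CD103 high and from 7.81 to 8.03 in the CD103 low arrays of PBS mice. Thus the CD103 high arrays after MDP had the lowest values of the 4 groups.

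Of the other lower genes, Gbp10, Ptger4, Dusp5, Vegfa and Sirpa belong to 1 list each, and Plac8 and Zfas1 to none. Gbp10 (probe set 17450501, Entrez gene 626578), an interferon-inducible GTPase, was at 7.29, 7.16 and 7.18 against 9.30, 8.21 and 8.004 (-1.29 ± 0.24, adjusted p = 0.031; -0.90 without low 1, adjusted p = 0.00421). It was 1 of 14 such GTPases called, and since its family holds near copies, other members may share its signal. Ptger4, a receptor for prostaglandin E2, was at 8.86, 9.03 and 8.98 against 9.91, 9.49 and 9.52 (-0.68 ± 0.12, adjusted p = 0.0247; -0.55 without low 1, adjusted p = 0.062). The gates did not overlap in either gene. Dusp5, a phosphatase of the kinase ERK, was lower by a difference of -0.80 ± 0.16 (adjusted p = 0.0463; -0.60 without low 1, adjusted p = 0.117). Vegfa, the growth factor of blood vessels, had -0.46 ± 0.08 (adjusted p = 0.0258; without low 1 0.0664). Plac8 (-0.40 ± 0.07, adjusted p = 0.0216) and Zfas1 (-0.42 ± 0.07, adjusted p = 0.0247), a host of small nucleolar RNAs, hardly moved in size without low 1, at -0.39 and -0.45, though neither was then called (adjusted p = 0.0664 and 0.062).

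Sirpa encodes a receptor for CD47 and serves as a marker of the type 2 lineage (cDC2). It was at 5.33, 5.36 and 5.45 in the high arrays and at 6.01, 5.77 and 5.86 in the low arrays (-0.50 ± 0.09, adjusted p = 0.0308; -0.43 without low 1, adjusted p = 0.117). It was the only called gene of 15 cDC2 markers, of which 12 lay below 0 after MDP and 11 in PBS mice. The list medians were -0.16 after MDP and -0.15 in PBS mice. The mean of these markers was 5.85 to 5.88 in the high arrays and 6.03 to 6.33 in the low arrays. Clec4a4, Clec10a and Mgl2 of the list lay in the olfactory receptor range. The part of cDC2 transcripts in the lower genes was not tested.

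Markers of further cell types were also measured. No marker of plasmacytoid dendritic cells, monocytes and macrophages, granulocytes, B cells, T cells, natural killer cells, erythroid cells or B16 melanoma was called. The monocyte and macrophage list mean was 5.90 to 6.03 in the high and 6.01 to 6.19 in the low arrays, over 17 genes, of which 5 lay in the olfactory receptor range. The plasmacytoid list mean was 6.34 to 6.39 against 6.41 to 6.53, with 4 of 15 genes in that range. The T cell list mean was 4.68 to 4.81 against 4.84 to 5.03 over 12 genes, of which 9 lay in that range, Cd3e, Cd3d and Cd3g among them. Its member Il7r was at 7.09 in low 1 and at 4.38 or lower in the other MDP arrays. The B cell list mean was 5.19 to 5.23 against 5.20 to 5.34 over 13 genes, of which 9 lay in that range. For natural killer cells the list mean was 4.88 to 5.03 against 5.00 to 5.07, with 6 of 11 genes in that range. Granulocyte markers lay at 4.21 to 4.33 against 4.34 to 4.42 (13 of 15 in that range), erythroid markers at 4.70 to 4.81 against 4.75 to 4.86 (7 of 8) and B16 melanoma markers at 4.75 to 4.86 against 4.68 to 4.82 (8 of 11). The part of these cells in the results was not tested.

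Pathways upstream of maturation were compared with lists of their own. NF-kB subunits and inhibitors had 0 of 23 genes called and 22 below 0, with a median of -0.26 (-0.16 without low 1). Relb, which pairs with p52 in mature dendritic cells, was at 7.59, 7.90 and 8.08 against 9.61, 8.46 and 8.52 (-1.01 ± 0.24, adjusted p = 0.102; -0.64 without low 1). Tnip1, a brake on NF-kB, had -0.45 ± 0.12 (adjusted p = 0.133). Of 24 genes of NOD2 sensing and signalling 0 were called, with a median of -0.05 (-0.03 without low 1) and with Casp1 (-0.30 ± 0.10, adjusted p = 0.32) and Birc2 (-0.36 ± 0.14, adjusted p = 0.406; -0.15 without low 1) first by p. Nod2 itself was at 6.64, 6.66 and 6.73 against 7.03, 6.69 and 6.67 (-0.12 ± 0.11, adjusted p = 0.777; adjusted p = 0.998 without low 1), so the gates overlapped. Of 23 genes of the GM-CSF receptor and STAT5 0 were called, with a median of -0.10 and 19 below 0 (-0.04 and 15 without low 1). Pim1 (-0.28 ± 0.10, adjusted p = 0.323) and Socs2 (-0.38 ± 0.15, adjusted p = 0.388) were first by p, at -0.16 and -0.15 without low 1. The receptor chain genes were at differences of 0.01 ± 0.10 (Csf2ra, adjusted p = 0.989), -0.31 ± 0.13 (Csf2rb, adjusted p = 0.431) and -0.26 ± 0.11 (Csf2rb2, adjusted p = 0.429). The latter pair was at -0.14 (Csf2rb) and -0.13 (Csf2rb2) without low 1.

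The effector lists gave few calls. Of 16 costimulatory genes 0 were called, 14 lay below 0 and the median was -0.27, which was -0.10 without low 1. Icos and Icosl had the smallest p (-0.80 ± 0.23 and -0.40 ± 0.15, adjusted p = 0.208 and 0.363), at -0.47 and -0.18 without low 1. Of 25 cytokine genes only Vegfa was called, and Il12b, a subunit of interleukin 12 named after its values were seen, was at 7.59, 7.64 and 7.46 against 9.98, 8.52 and 8.25 (-1.35 ± 0.36, adjusted p = 0.144; -0.82 without low 1). Of 34 interferon-stimulated genes 0 were called, with a median of -0.16 and with Oas2 (-0.51 ± 0.14, adjusted p = 0.146) and Irf1 (-0.60 ± 0.19, adjusted p = 0.239; -0.40 without low 1) first by p. Of 25 checkpoint and tolerance genes 0 were called, with a median of -0.12 (-0.03 without low 1). Pdcd1lg2 (-0.46 ± 0.14, adjusted p = 0.254) and Pvr (-0.50 ± 0.19, adjusted p = 0.371; -0.25 without low 1) were first by p.

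The same contrast in PBS mice, which uses other arrays and the same estimate of the spread, shows what parts the gates without MDP. There 17 genes were called (0.0766%), 10 higher (0.0451%) and 7 lower (0.0316%), and none of them is among the 116. Itgae, which narrowly missed the call after MDP with all arrays, stood higher in the high gate in PBS mice too. Of the 105 genes that were higher after MDP, 85 lay below 0 in PBS mice and 20 above, where 51.1% of all genes lay below 0 and 48.9% above. Of the 11 lower genes, 8 lay above 0 in PBS mice. The 269 cell division genes had a median of -0.12 in PBS mice and 0.43 after MDP (0.37 without low 1). Their mean was 7.96, 7.98 and 7.87 in the MDP high arrays and 7.36, 7.58 and 7.55 in the MDP low arrays. In PBS mice it ranged from 7.32 to 7.56 in the high arrays and from 7.41 to 7.60 in the low arrays. The 3 MDP high arrays thus stood above all other arrays.

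The difference between the gates was tested for a change with treatment as an interaction, the MDP difference minus the PBS difference. It was called for 16 genes (0.0721%), all 16 higher and 0 lower (0%), with 2137 genes at an unadjusted p under 0.05. All 16 are among the 105 and share an adjusted p of 0.0486, close to the threshold. Esco2 had the largest, 1.43 ± 0.19, with PBS means of 6.86 in the high and 6.95 in the low gate, and it was the only one of the 16 still called without low 1 (adjusted p = 0.0115). Ndc80 had 1.39 ± 0.20, with a PBS difference of -0.44, and Atad2, which binds acetylated histones on new chromatin, had 1.36 ± 0.22, with -0.47. Without low 1, 2 genes were called, Esco2 and Gbp10, the latter with an adjusted p of 0.0101. Without low 2, 10 genes were called, without PBS CD103 low replicate 6, 41, and without PBS CD103 high replicate 4, 107. Without low 3, high 2, high 3, high 4 or any other PBS array, 0 genes were called. For Ccl5 and Ccr7 the interaction was -3.11 ± 0.65 (adjusted p = 0.088) and -2.14 ± 0.47 (adjusted p = 0.102), and neither was called.

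**Figure D5:**
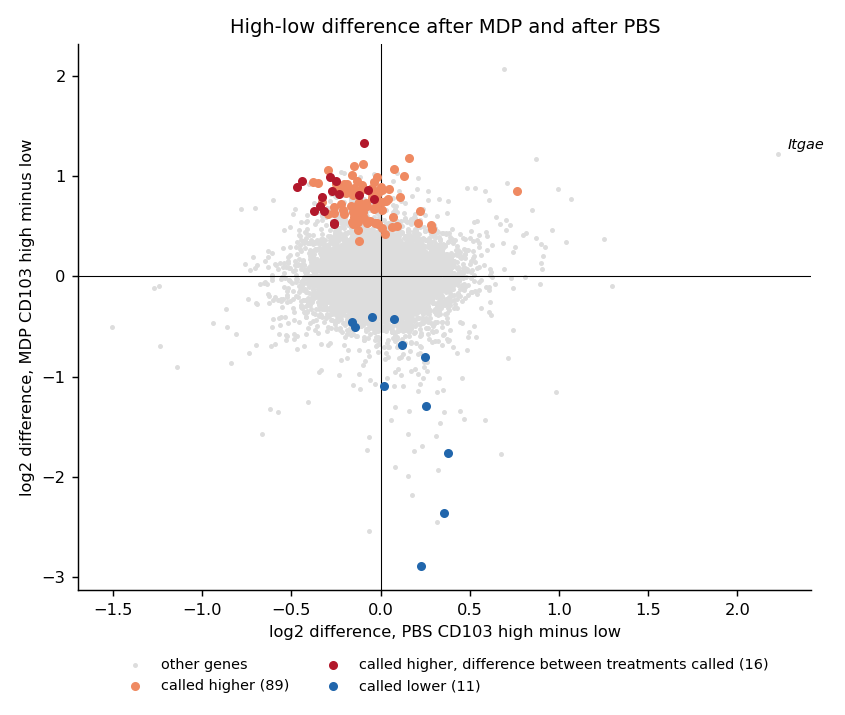
Log2 difference between CD103 high and low cells after PBS (x axis) and after MDP (y axis) for all genes (grey) and the 116 called genes (coloured by direction and by the call of the interaction). The 16 genes with a called interaction lie above 0 after MDP and below 0 after PBS, and Itgae lies above 0 in both.

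Ddx43, a helicase gene named after its values were seen, was an exception among the higher genes. It was at 6.01, 5.89 and 5.90 in the high arrays and at 5.34, 5.14 and 4.78 in the low arrays after MDP (0.85 ± 0.13, adjusted p = 0.0193; 0.97 without low 1, adjusted p = 0.0348). In PBS mice its difference was 0.76 ± 0.13 (adjusted p = 0.0509), and the interaction was 0.09 ± 0.18 (adjusted p = 0.921). Klrk1, which encodes the receptor NKG2D and had the smallest p of the natural killer list, gave a like pattern in the other direction, at -0.39 ± 0.08 after MDP (adjusted p = 0.051, and 0.025 with the random block) and -0.33 ± 0.07 in PBS mice (adjusted p = 0.195).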

How the data were processed

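RNA of 13 sorted samples was measured on microarrays. The authors deposited log2 values, 1 for each probe set and array; the submitters' processing notes name RMA and Affymetrix Expression Console. Their versions, like the genome build, are not given in the sources used. RMA makes the arrays' distributions alike, so a shift of most genes in an array is removed. Array medians were 5.00 to 5.13. Of 41345 probe sets, 23521 have 1 gene symbol and gave 22180 genes, with the probe set of highest mean kept for 1082 genes with several. IDs of 21994 genes matched the RefSeq table. No filter on low values was used.

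The model had 4 group means over the 13 arrays, fitted with limma 3.58.1 in R 4.3.3 and moderated by eBayes (9 residual and 3.86 prior degrees of freedom). Tests were two-sided, with Benjamini-Hochberg adjustment over all genes and a threshold of 0.05. The median SE was 0.110, which the number of arrays limits. The fit was tested on simulated data. Python 3.11.15, pandas 2.3.3 and matplotlib 3.10.9 were used for tables and plots. Lists were described by counts and medians, with no set test.

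Members, lists and tests were chosen with earlier results of these data known, so counts in the lists are no independent support. Genes named are the 15 largest called differences in each direction without overlap (predicted genes, microRNAs and receptor families aside), called members of a list or else its 2 smallest p, the 10 smallest p of the interaction, and Itgae, Esco2, Ccl5, Ccr7, Cd8a, Ly75, Nod2, Csf2ra, Csf2rb and Csf2rb2. Replicate numbers have no stated meaning. Deviations of same-numbered arrays from their group means correlated at 0.33 and 0.196 (MDP 2 and 3) and 0.283 and 0.372 (PBS 4 and 6). The numbers were thus assumed to pair arrays within a treatment, with no correlations of differently numbered arrays given beside these. This pairing was inferred from the same values, and the arrays of each pair also share their Xist state. Alternatives left out arrays, changed the fit, block, filter or probe set rule, or centred the arrays.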

Additional observations from a re-analysis of the deposited data

Results flagged for a closer look

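For 16 genes the difference between CD103 high and low cells after MDP differed from that after PBS by the test of the interaction itself, each with an adjusted p of 0.0486 in limma. The MDP difference minus the PBS difference was 1.43 for Esco2, 1.39 for Ndc80, 1.36 for Atad2, 1.27 for Kif4, 1.21 for Blm and 1.12 for both Fancd2 and Ncapg2. It was 1.05 for Rad54l, 1.04 for Mms22l, 1.03 for Cdc7, 0.97 for Wdhd1, 0.93 for both Mtbp and Kif18b, 0.80 for both Rad18 and Rpa2, and 0.78 for Rfc5. In each of them the PBS difference lay below 0 and the MDP difference above 0. Without MDP CD103 low replicate 1, only Esco2 of the 16 was called. No gene was called without MDP CD103 low replicate 3 or without any 1 of the MDP CD103 high arrays. The count of genes called ranged from 0 to 107 with an array left out, and from 0 to 144 in the other fits.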

How the results depend on the processing

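Genes called between the gates after MDP numbered 116, and 0 to 140 when each array was left out in turn. Only the 6 MDP arrays gave 0, and 1 without MDP CD103 low replicate 1. The replicate block across treatments, as a fixed term, gave 0 (smallest adjusted p 0.0641, 2141 at an unadjusted p under 0.05), and the block within treatment, added after seeing the data, 190. A variance trend with a robust fit gave 192, genes above the median level 233 and the Xist block 61. Array weights, the mean of probe sets and centred arrays stayed within 1.5 times, at 134, 114 and 138. The interaction called 16 genes, and 0 to 107 with an array left out. It called 0 with the fixed block or the Xist block, 41 with the block within treatment, 116 with the trend and robust fit, 35 with array weights and 144 above the median level. Of 78 called genes named, none kept its call in all 23 alternatives (7 to 18 of 23). Of 130 genes named by rule, the block within treatment gained 3 calls and lost 0, and the fixed block lost all 78. The number of arrays limits what can be detected, and differences that rest on values near background need care.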

Other observations

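Lists that belong to no claim above gave few calls. Of 26 antigen presentation genes 0 were called, with a median of -0.03 and with Psmb10 (-0.21 ± 0.08) and Ifi30 (-0.22 ± 0.09; -0.14 without low 1) first by p. Of 20 genes of glycolysis and 19 of cholesterol synthesis 0 were called, with medians of 0.03 and -0.14 (-0.01 and -0.04 without low 1). Pfkp (0.39 ± 0.12) and Emb (-0.51 ± 0.16) were first by p in the former, and Msmo1 (-0.37 ± 0.09) and Hmgcs1 (-0.50 ± 0.13; -0.32 without low 1) in the latter. Of 22 genes of apoptosis and p53 0 were called. Gadd45b, a stress-response gene of that list, was at 7.24, 7.68 and 8.11 in the high arrays and at 10.74, 8.70 and 8.91 in the low arrays (-1.77 ± 0.41, adjusted p = 0.091 in limma; -1.13 without low 1, adjusted p = 0.0821). Ptgs2, which makes prostaglandins and is named after its values were seen, was at 4.07, 4.22 and 3.85 against 6.11, 4.80 and 5.00. Its difference was -1.26 ± 0.26 (adjusted p = 0.0529 in limma, and 0.0399 with treatment and number as a random block). Its mean level lay in the olfactory receptor range, and of the 6 MDP arrays only low 1 lay above 5.12. Of 18 prostaglandin genes 10 lay above 0, with a median of 0.02. Of 24 TGF-beta and CD103 regulators 0 were called. Runx3, a transcription factor of CD103 expression in T cells, was at 6.61, 6.56 and 6.56 against 7.11, 6.76 and 6.94 (-0.36 ± 0.10, adjusted p = 0.149).

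The 17824 probe sets with several gene symbols or none were fitted apart in limma, and 0 were called between the gates after MDP (smallest adjusted p 0.263), with 1494 at an unadjusted p under 0.05.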
